A study of Homo sapiens with 12 samples.

Results

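Keratins are the intermediate filament proteins of epithelial cells. A keratin filament is built from pairs of 1 acidic type I and 1 basic type II protein, so the levels of both types are read together. KRT8 and KRT18 form the filaments of simple epithelia, usually with KRT7 and KRT19, whereas KRT5 with KRT14 or KRT15 marks the basal layer of stratified epithelia, KRT10 its upper layers, and KRT17 activated or wounded epithelium. KRT81 is a keratin of the hair shaft, and KRT80 is a type II keratin of differentiating epithelia. Filaments are anchored to desmosomes between cells and to hemidesmosomes at the basement membrane by proteins of the plakin family.

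The 10 genes described here are KRT5, KRT7, KRT8, KRT80 and KRT81, which are type II, and KRT10, KRT15, KRT17, KRT18 and KRT19, which are type I. They were all found among the 26475 gene symbols of the expression table, beside 45 other keratin genes. The 10 genes were chosen by name with their levels in all 4 groups already known, so their differences are given as descriptions with standard errors and without p-values. P-values are given for genes outside this set, computed by the quasi-likelihood F-test of edgeR and adjusted by the Benjamini-Hochberg method across every gene in the fit. A gene is called changed at an adjusted p below 0.05.

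The libraries came from 2 ovarian cancer cell lines, PA-1, derived from a teratocarcinoma, and SK-OV-3, derived from an adenocarcinoma. Each line was grown for 48 h with BAY-850, an inhibitor of the ATAD2 bromodomain, at 5 µM or with the vehicle DMSO, and each of the 4 groups held 3 libraries described as biological replicates. PA-1 was kept in DMEM and SK-OV-3 in RPMI, so the line and its medium cannot be told apart in any comparison between lines, and each line stands for a single tumor. The question put to these libraries was which genes respond when ATAD2 is inhibited. The depth was 34544505 to 51840233 counts per library, of which ribosomal RNA genes took 7.94% to 16.9%. SK-OV-3 BAY-850 replicate 3 had the highest total but counts for only 15629 genes, against 17425 to 18414 in the other 11 libraries. The lines differed in their markers. In PA-1 with DMSO the stem cell genes POU5F1 and LIN28A averaged 409 ± 37 and 756 ± 56 CPM (counts scaled to a common library size, SD, n = 3). In SK-OV-3 with DMSO PAX8 averaged 223 ± 7.3 CPM. Between these groups all 8 stem cell genes listed were called lower in SK-OV-3. Of 7 ovarian carcinoma markers 4 were called higher in SK-OV-3, 1 was called lower and 2 were not called. Of 16070 genes tested 40.1% were called higher and 40.2% lower. In the same groups the epithelial surface gene EPCAM averaged 0.474 ± 0.14 CPM in PA-1 and 38.1 ± 3.0 CPM in SK-OV-3, while RAB25, another epithelial marker, stayed under 0.5 CPM in both. Blood cell markers summed to at most 1.24 CPM in any library, and HBB had no count.

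In the human genome (GRCh38, GENCODE 29) the keratin genes lie in 2 clusters. The 26 type II genes and KRT18 are on chromosome 12, between 52168996 and 52952901, and the other 28 type I genes are on chromosome 17, between 40654665 and 41624842. KRT8 (chr12:52897187-52949954, minus strand) and KRT18 (chr12:52948871-52952901, plus strand) overlap by 1084 bases. The libraries were made with dUTP in the second strand, which keeps the strand of the RNA, but whether the counting used it is not given in the sources used here, so reads from that overlap may have gone to either gene. KRT81 (chr12:52285913-52291534, minus strand) lies inside the span annotated for KRT86, and the 2 genes are near copies: 44.6% of the 50-base windows of the longest KRT81 transcript also occur in another gene, and 38.4% occur in KRT86. The share was 22.1% for KRT8 and 21.7% for KRT18, mostly through pseudogenes, 11.7% for KRT17, and at most 3.99% for the 6 others. The counts of KRT81, and to a lesser degree those of KRT8, KRT18 and KRT17, therefore depend on how reads shared between copies were assigned.

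Promoter sequences (RefSeq, GRCh38.p14) were at hand for KRT5, KRT8 and KRT10. In SK-OV-3 KRT5 had the largest difference of the 10 genes, KRT8 a moderate one and KRT10 the smallest. No sequence was at hand for KRT80, the member that rose, so the 3 sequences do not span the range of responses. Each is the run of 250 bases that ends just before the RefSeq start, read 5′ to 3′ on the gene's strand, at chr12:52520395-52520644, chr12:52926470-52926719 and chr17:40822615-40822864, all on the minus strand. The windows of KRT5 and KRT8 fall within the wider gene span that GENCODE gives, which for KRT8 begins at 52949954 on its strand. Which start these cells used was not tested. Capitals mark the only match to the motifs searched.
KRT5: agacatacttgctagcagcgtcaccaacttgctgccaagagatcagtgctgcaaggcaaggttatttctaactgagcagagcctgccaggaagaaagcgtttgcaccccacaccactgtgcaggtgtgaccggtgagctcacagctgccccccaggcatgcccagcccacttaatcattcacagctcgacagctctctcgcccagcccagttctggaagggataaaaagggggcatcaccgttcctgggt
KRT8: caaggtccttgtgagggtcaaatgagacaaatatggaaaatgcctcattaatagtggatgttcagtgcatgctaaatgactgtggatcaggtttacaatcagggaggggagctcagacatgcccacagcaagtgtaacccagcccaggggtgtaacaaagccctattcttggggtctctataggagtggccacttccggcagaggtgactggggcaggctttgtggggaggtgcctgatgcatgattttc
KRT10: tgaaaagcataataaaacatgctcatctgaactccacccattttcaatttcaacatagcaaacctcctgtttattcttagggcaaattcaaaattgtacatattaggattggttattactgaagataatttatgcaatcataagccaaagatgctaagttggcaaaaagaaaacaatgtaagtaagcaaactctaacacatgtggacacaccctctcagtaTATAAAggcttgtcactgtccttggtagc

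The motifs searched on both strands were AP-1 (TGANTCA), the TATA box (TATAAA), the GC box (GGGCGG), TEAD (GGAATG) and AP-2 (GCCNNNGGC), none of which contains another. Only KRT10 held a match, a TATA box from base -29 to base -24 before the start. Across 35116 RefSeq promoters cut to the same 250 bases, 6.57% held the AP-1 motif, 10.7% the TATA box, 42.6% the GC box, 11.9% the TEAD motif and 19.8% the AP-2 motif. The GC content was 56.0% for KRT5, 50.4% for KRT8 and 34.8% for KRT10. The absence of a match says only that those letters are not in these windows.

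Under DMSO the lines shared KRT8 and KRT18 at a similar level and differed widely in most of the other members. KRT8 was at 558, 533 and 504 CPM in the 3 PA-1 libraries and at 618, 588 and 590 CPM in SK-OV-3, a log2 fold change of 0.17 ± 0.05 (SE) from PA-1 to SK-OV-3 that was no longer called, at 0.079, once a trend with GC content was removed. KRT18 was at 343, 325 and 338 CPM in PA-1 and at 281, 258 and 258 CPM in SK-OV-3, a log2 fold change of -0.34 ± 0.05. Neither pair of groups overlapped, yet KRT8 was only 1.12-fold higher and KRT18 1.26-fold lower in SK-OV-3.

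The remaining keratins set SK-OV-3 apart. KRT7, the type II partner found in many glandular epithelia, was at 476, 425 and 418 CPM in SK-OV-3, and its counts in the 3 PA-1 libraries were 4, 1 and 6.04. KRT19, the smallest type I keratin, was at 558, 518 and 501 CPM in SK-OV-3 against 16.5, 14.0 and 16.5 CPM in PA-1, a log2 fold change of 5.07 ± 0.08. KRT80 averaged 250 ± 3.3 CPM in SK-OV-3 and 1.23 ± 0.13 CPM in PA-1 (log2 fold change 7.65 ± 0.09). These 3 genes were abundant in SK-OV-3 and low or nearly absent in PA-1.

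The same held for the keratins of stratified epithelium. KRT17 was at 162, 149 and 155 CPM in SK-OV-3 against 0.954, 0.865 and 1.36 CPM in PA-1 (log2 fold change 7.20 ± 0.11). KRT5 was at 126, 108 and 113 CPM in SK-OV-3, while the PA-1 libraries with DMSO held 0, 11 and 2 counts. KRT15 was low even in SK-OV-3, at 3.27, 2.65 and 2.20 CPM, and had 0, 1 and 3 counts in PA-1. KRT81 averaged 28.4 ± 2.8 CPM in SK-OV-3 and 0.522 ± 0.21 CPM in PA-1 (log2 fold change 5.75 ± 0.20). KRT10 differed less, at 48.6 ± 6.5 CPM in SK-OV-3 and 32.7 ± 3.3 CPM in PA-1 (log2 fold change 0.57 ± 0.10). Altogether 9 of the 10 members were called higher in SK-OV-3 and 1, KRT18, was called lower. KRT5, KRT7 and KRT15 passed the low-count filter only through SK-OV-3, so the direction of their calls was fixed in advance. Between the lines 40.1% of 16070 genes were called higher in SK-OV-3 and 40.2% lower, so a call in this comparison is common for any gene.

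**Figure D1:**
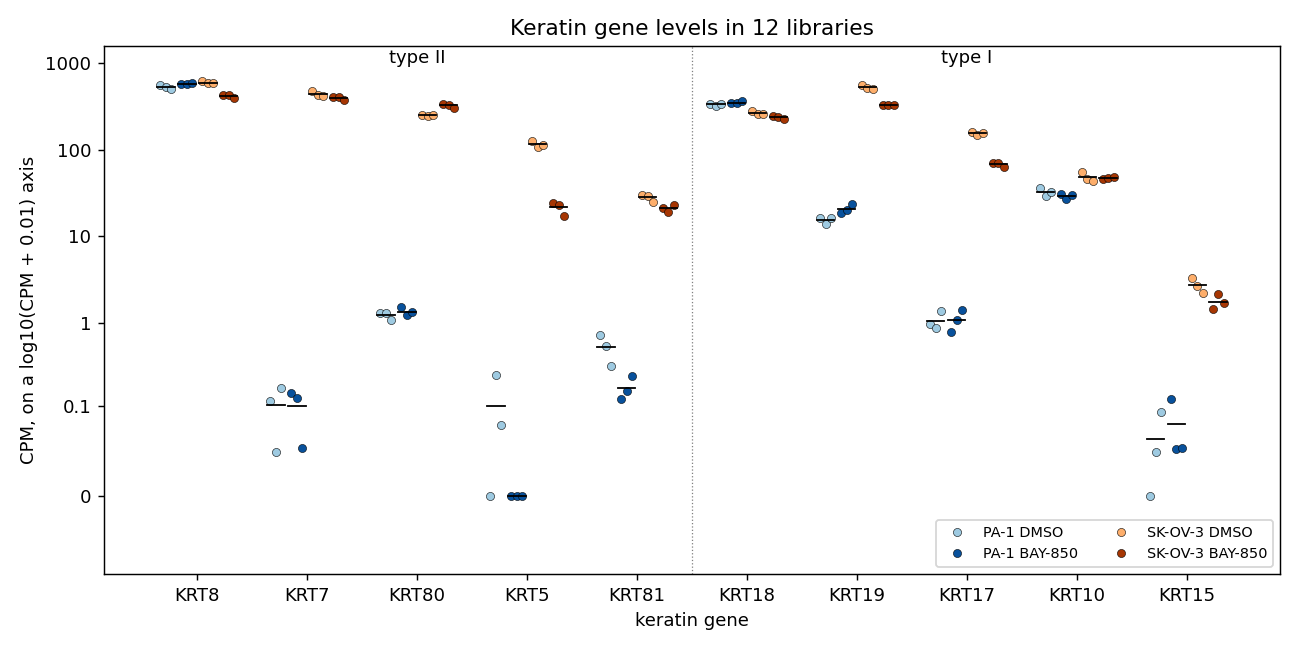
Level of each of the 10 keratin genes in every library, as CPM on a log10(CPM + 0.01) axis; points are libraries, horizontal lines are group means (n = 3), and colors mark line and treatment. KRT8 and KRT18 lie between 229.5 and 618 CPM in all 12 libraries, whereas KRT7 and KRT5 are at or near 0 in PA-1 and average 440 and 116 CPM in SK-OV-3 with DMSO.

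Set on a per-length scale (CPM per kilobase of the union of annotated exons), the order of the members with DMSO also differed between lines. In PA-1 KRT18 was highest at 104 ± 2.9 CPM per kb, KRT8 followed at 77.3 ± 3.9, KRT10 stood at 15.3 ± 1.5 and KRT19 at 6.71 ± 0.61, with no overlap between neighbours. KRT17, KRT80 and KRT81 lay between 0.271 and 0.338 CPM per kb and overlapped with their neighbours, and KRT7, KRT5 and KRT15 were at 0.0251 CPM per kb or less. In SK-OV-3 KRT19 led at 225 ± 12 CPM per kb, followed by KRT7 at 107 ± 7.9, KRT8 at 87.0 ± 2.5 and KRT18 at 82.6 ± 4.2. KRT8 and KRT18 overlapped, as did KRT5 at 27.0 ± 2.1 and KRT10 at 22.7 ± 3.0. KRT80 (57.4 ± 0.76), KRT17 (49.5 ± 2.0), KRT81 (14.7 ± 1.5) and KRT15 (0.383 ± 0.076) took the other places. The order depends on the length used: per kilobase of the longest transcript KRT17 stood above KRT80 in SK-OV-3 and KRT8 above KRT18 in PA-1, and with the principal transcript, a length tried after the data had been seen, KRT8 also stood above KRT7 in SK-OV-3. With either of these lengths KRT8 stood above KRT18 and KRT5 above KRT10 in SK-OV-3, without overlap.

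The summed level of all 55 keratin genes was 204 ± 7.2 CPM per kb in PA-1 with DMSO and 688 ± 36 CPM per kb in SK-OV-3 with DMSO. KRT8 and KRT18 together made up 88.7% ± 0.74 of that sum in PA-1 but 24.7% ± 0.33 in SK-OV-3 (SD, n = 3). In SK-OV-3 the largest shares belonged to KRT19 (32.7% ± 0.37) and KRT7 (15.6% ± 0.32). The 45 keratins outside the set held 0.0839% ± 0.017 of the sum in PA-1 and 2.12% ± 0.11 in SK-OV-3, so the 10 members carried nearly all keratin RNA of both lines. The shares depend on the length used. With principal transcript lengths KRT8 and KRT18 together made up 94.3% ± 0.42 in PA-1 and 33.7% ± 0.48 in SK-OV-3. In SK-OV-3 KRT8 (21.0% ± 0.47) then stood between KRT19 (28.2% ± 0.35) and KRT7 (18.7% ± 0.41).

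With BAY-850 in SK-OV-3, KRT5, KRT17, KRT19, KRT8 and KRT81 fell, KRT80 rose, and the differences of KRT15, KRT18, KRT7 and KRT10 did not pass the test. The 5 called lower and the 1 called higher stand beside 9.56% and 10.8% of 15348 genes called lower and higher in this comparison. The median log2 fold change was -0.46 over the 10 members and -0.0091 over all genes tested. Libraries of the 2 groups did not overlap for 9 members, 8 lower and 1 higher, where 38.6% of all genes had no overlap. The members were chosen with this contrast known, so the counts describe the set only.

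KRT5, the basal type II keratin, had the largest difference of the 10. It was at 126, 108 and 113 CPM with DMSO and at 24.4, 23.0 and 17.4 CPM under BAY-850, so every treated library lay far below every vehicle library. The log2 fold change was -2.41 ± 0.11 (SE, n = 3 per group), or 5.33-fold lower. The lowest value came from replicate 3, the library with the fewest genes detected, and without it the log2 fold change was -2.29.

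KRT17, a type I keratin, fell next most. Its levels were 162, 149 and 155 CPM with DMSO and 70.5, 69.8 and 63.0 CPM under BAY-850, a log2 fold change of -1.18 ± 0.06 or 2.27-fold lower. The spread within either group was small against the gap between them.

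Among the simple epithelial keratins KRT19 fell from 558, 518 and 501 CPM to 330, 327 and 327 CPM, a log2 fold change of -0.67 ± 0.05. KRT8 fell from 618, 588 and 590 CPM to 426, 426 and 395 CPM, a log2 fold change of -0.51 ± 0.05. For both genes the groups were well apart. Its filament partner KRT18 was at 281, 258 and 258 CPM with DMSO and at 245, 237 and 229.5 CPM under BAY-850. The KRT18 groups did not overlap, but the log2 fold change of -0.15 ± 0.05 was not called. KRT7 was at 476, 425 and 418 CPM and at 405, 405 and 375 CPM, a log2 fold change of -0.14 ± 0.06 that was likewise not called.

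The partners KRT8 and KRT18 thus differed in size of response. The ratio of KRT8 to KRT18, per kilobase, was 1.05 ± 0.02 with DMSO and 0.820 ± 0.018 with BAY-850 (SD, n = 3), with no overlap between groups. In PA-1 it was 0.742 ± 0.038 with DMSO and 0.771 ± 0.005 with BAY-850. The absolute ratio rests on the gene lengths and on the shared and overlapping sequence described above, whereas its relative change between treatments does not depend on length.

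KRT81 was called lower, at 30.3, 29.7 and 25.1 CPM with DMSO and 21.2, 19.3 and 22.9 CPM under BAY-850, a log2 fold change of -0.41 ± 0.11. This call was lost when any of 4 single libraries was left out (SK-OV-3 DMSO replicates 1 and 2, BAY-850 replicates 1 and 2), with log2 fold changes of -0.35, -0.38, -0.41 and -0.34, and in the fit of all 12 libraries (-0.42). Summed with its near copy KRT86 it stood at 34.4, 32.3 and 27.7 CPM with DMSO and at 24.1, 22.5 and 26.0 CPM under BAY-850, still without overlap. KRT15 was at 3.27, 2.65 and 2.20 CPM and at 1.43, 2.18 and 1.68 CPM. Its log2 fold change of -0.61 ± 0.31 was not called, and the lowest vehicle library lay just above the highest treated one.

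KRT80 moved the other way, from 250, 246 and 252 CPM to 338, 330 and 308 CPM, a log2 fold change of 0.40 ± 0.05. KRT10 was at 56.1, 45.5 and 44.2 CPM with DMSO and at 45.7, 47.0 and 48.4 CPM under BAY-850. The KRT10 groups overlapped and the log2 fold change was -0.03 ± 0.09. It turned to 0.087 without SK-OV-3 DMSO replicate 1, whose value was above all the others.

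**Figure D2:**
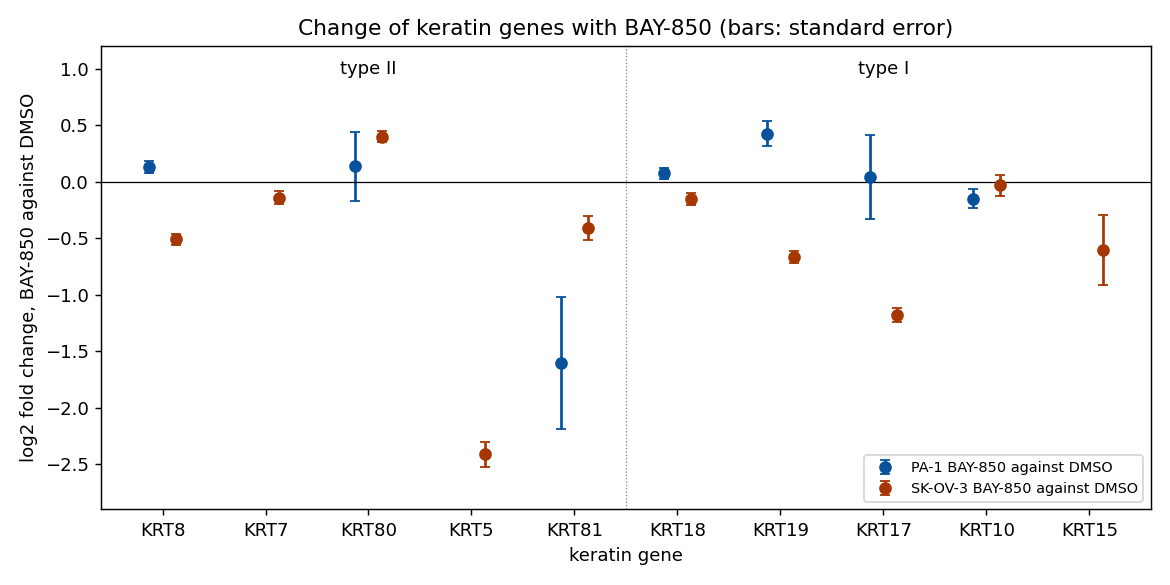
Log2 fold change of each keratin gene with BAY-850 against DMSO in PA-1 (blue) and SK-OV-3 (brown), with bars of 1 standard error from the edgeR fit (n = 3 per group); KRT5, KRT7 and KRT15 were too low in PA-1 to be tested. In SK-OV-3 KRT5 lies at -2.41 and KRT80 alone above 0 at 0.40, and in PA-1 KRT19 lies at 0.42.

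Genes listed as cell type markers also moved in this comparison, where 9.56% of 15348 genes were called lower and 10.8% higher. Of 7 fibroblast markers 6 were tested and 3 fell, COL1A1, COL1A2 and LUM, with log2 fold changes of -0.77, -1.15 and -2.25, and the libraries of all 6 were lower without overlap. The summed level of the list was 181 to 192 CPM with DMSO and 88.9 to 118 CPM under BAY-850, while DCN and FAP, also on the list, were under 0.5 CPM in every SK-OV-3 library. Of 10 markers of simple epithelium 9 were tested, of which 3 rose and 2 fell. Among them EPCAM (-0.98 ± 0.09) and ESRP2 (-0.74 ± 0.16) fell, and CLDN7 (0.93 ± 0.24) and CLDN4 (0.80 ± 0.08) rose, with adjusted p-values from 2.04e-05 to 0.0196 by edgeR. The summed level of the 10 was 198 to 210 CPM with DMSO and 227 to 243 CPM under BAY-850. Of 7 ovarian carcinoma markers all were tested, of which 3 fell and 1, PAX8 (0.55 ± 0.05), rose, and their summed level was 2405 to 2882 CPM with DMSO and 1877 to 2280 CPM under BAY-850. The part of any of these in the keratin values was not tested. In bulk RNA fewer cells of a type and less RNA per cell cannot be told apart.

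The make-up of keratin RNA in SK-OV-3 shifted with these changes. The sum over all 55 keratins was 688 ± 36 CPM per kb with DMSO and 511 ± 15 CPM per kb with BAY-850. The share of KRT5 went from 3.92% ± 0.14 to 0.983% ± 0.14, that of KRT17 from 7.20% ± 0.21 to 4.23% ± 0.14 and that of KRT19 from 32.7% ± 0.37 to 27.5% ± 0.69. The shares of KRT80 (8.35% ± 0.43 to 14.6% ± 0.29) and KRT7 (15.6% ± 0.32 to 18.9% ± 0.31) went up, although the level of KRT7 itself was not called changed. Shares within a sum move when any large member moves. The summed type I level stood at 1.32 ± 0.02 times the type II level with DMSO and 1.05 ± 0.03 times with BAY-850. With principal transcript lengths the ratios were 1.03 ± 0.01 and 0.867 ± 0.024, so the drop was seen on both scales while the side of 1 depended on the length.

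**Figure D3:**
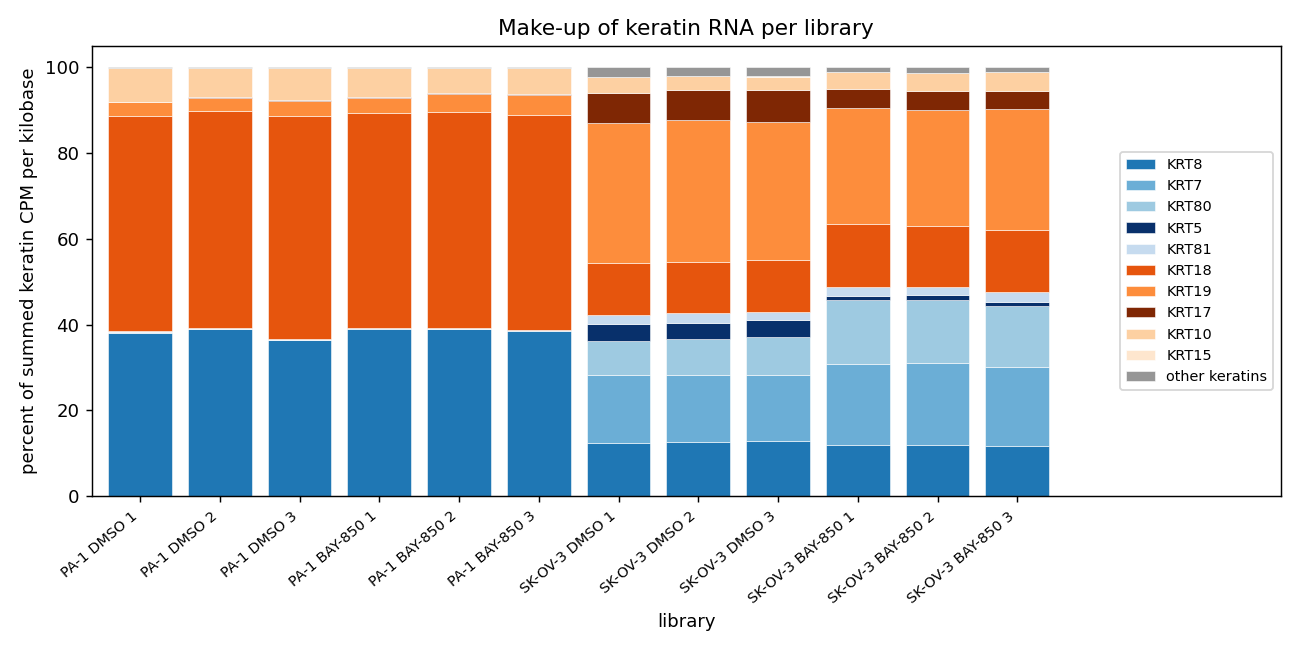
Share of each keratin in the summed CPM per kilobase of all 55 keratin genes, in percent, for each of the 12 libraries; type II members are in blue, type I members in orange and brown, and the 45 other keratins in grey. KRT8 and KRT18 fill 88.2% to 89.6% of the PA-1 bars, and in SK-OV-3 the KRT80 share is larger and the KRT5 and KRT17 shares smaller with BAY-850.

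In PA-1 the keratins changed little with BAY-850, and KRT19 was the one member called. It was at 16.5, 14.0 and 16.5 CPM with DMSO and at 18.7, 20.2 and 23.9 CPM under BAY-850, a log2 fold change of 0.42 ± 0.11. That is 1 of 7 members tested, beside 4.65% of 15212 genes called higher and 2.48% called lower, and the call did not hold in every setting. It was lost without DMSO replicate 1 (0.46), DMSO replicate 2 (0.35), BAY-850 replicate 2 (0.45) or BAY-850 replicate 3 (0.32). In the same comparison 1 of 4 fibroblast markers tested rose, COL1A1 (0.33 ± 0.08), and the list summed to 470 to 581 CPM with DMSO and 611 to 660 CPM under BAY-850, while DCN and FAP were under 0.5 CPM in every library; the part of these in the keratin values was not tested.

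KRT8 was at 558, 533 and 504 CPM with DMSO and at 575, 569 and 595 CPM under BAY-850 in PA-1, a log2 fold change of 0.13 ± 0.05. KRT18 was at 343, 325 and 338 CPM and at 346, 346 and 363 CPM, a log2 fold change of 0.07 ± 0.05. In both the groups did not overlap, as for 27.5% of all genes, and neither difference was called. KRT10, at 32.7 ± 3.3 and 29.3 ± 1.8 CPM, had a log2 fold change of -0.15 ± 0.08. KRT17 (0.04 ± 0.37) and KRT80 (0.13 ± 0.31) were near 1 CPM in both groups, and their standard errors were too wide to show a difference of the size seen for KRT8 in SK-OV-3.

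KRT81 in PA-1 had 25, 24 and 10.67 counts with DMSO and 5.09, 6 and 9 counts with BAY-850. The log2 fold change of -1.60 ± 0.58 was not called, though the groups did not overlap. Its near copy KRT86 had 0, 1 and 2.33 counts with DMSO and 15.9, 2 and 8 counts with BAY-850. Summed over both genes the counts were 25, 25 and 13 with DMSO and 21, 8 and 17 with BAY-850, which overlap. KRT5 had 0, 11 and 2 counts with DMSO and none in the 3 libraries with BAY-850, and KRT7 and KRT15 had at most 6.04 counts in any PA-1 library. No fold change is given for these 3 genes in PA-1.

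The difference between the lines in response was read from a fit of all 12 libraries with a term for line, treatment and their interaction. Each value below is the log2 fold change in SK-OV-3 minus that in PA-1, and both share the same vehicle libraries with the comparisons above. KRT17 (-1.24 ± 0.24), KRT19 (-1.10 ± 0.11), KRT8 (-0.65 ± 0.07) and KRT18 (-0.23 ± 0.07) were called lower, where 7.77% of 16830 genes were called lower and 6.7% higher. The KRT18 call held in only 10 of 22 alternative fits (-0.25 to -0.16). KRT80 (0.26 ± 0.15), KRT10 (0.11 ± 0.13) and KRT81 (1.19 ± 0.39) were not called, although KRT81 was called higher in 6 of 21 alternative fits (0.91 to 1.49 over all 21). All 10 members were tested, and KRT5 (2.81 ± 2.0), KRT15 (-1.32 ± 1.05) and KRT7 (-0.23 ± 0.67) were not called either. Those values rest on the few PA-1 counts given above, with errors too wide to tell whether the response of these genes differed between lines. For KRT8, KRT18 and KRT19 every BAY-850 library of PA-1 was above every DMSO library of that line, and every BAY-850 library of SK-OV-3 was below every DMSO library of its own. Groups did not overlap for 27.5% of all genes in PA-1 and 38.6% in SK-OV-3. KRT8 and KRT18 were not called in PA-1, nor was KRT18 in SK-OV-3, and the PA-1 value of KRT18 turned to -0.00047 with the GC trend removed. For KRT17 the PA-1 groups overlapped.

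Of the 45 other keratin genes 10 passed the low-count filter in SK-OV-3. KRT14, the type I partner of KRT5 in basal cells, was at 21.2, 18.6 and 17.98 CPM with DMSO and at 4.48, 5.64 and 4.13 CPM under BAY-850, a log2 fold change of -2.01 ± 0.14 with an edgeR adjusted p of 3.16e-06. KRT16, a type I keratin of activated epithelium, was at 4.602, 3.28 and 3.11 CPM and at 1.23, 1.26 and 1.08 CPM, a log2 fold change of -1.61 ± 0.29 with an edgeR adjusted p of 0.00278. KRT14 and KRT16 were the 2 called, both lower. They share 23.8% and 22.0% of their 50-base windows with other genes, each other included.

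KRT6A, a type II partner of KRT16, was at 2.72, 4.07 and 3.86 CPM with DMSO and at 0.418, 1.37 and 0 CPM under BAY-850. Its log2 fold change of -2.59 ± 0.86 missed the threshold (edgeR adjusted p = 0.0539), and 39.1% of its windows occur in other genes, mostly KRT6C. The other 7 tested were at 3.09 CPM or less with DMSO and had wide errors: the log2 fold change was -2.01 ± 0.83 for KRT9, -1.003 ± 1.2 for KRT83, -0.97 ± 0.62 for KRT34, -0.96 ± 1.1 for KRT222, -0.57 ± 0.68 for KRT27, -0.014 ± 0.76 for KRT78 and -0.0058 ± 0.26 for KRT86. The ratio of KRT5 to KRT14 per kilobase was 3.19 ± 0.13 with DMSO and 2.44 ± 0.40 with BAY-850.

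In PA-1 KRT222 was the one other keratin tested with BAY-850, with a log2 fold change of -0.39 ± 0.63 and an edgeR adjusted p of 0.763. Between the lines under DMSO 8 were tested and 7 were called higher in SK-OV-3: KRT14, KRT6A, KRT34, KRT27, KRT9, KRT16 and KRT86. Over all 16070 genes 40.1% were called higher. KRT14, KRT6A, KRT34, KRT27 and KRT9 had no count in any PA-1 library with DMSO, and KRT16 and KRT86 had at most 3. All 7 passed the low-count filter only through SK-OV-3, so the direction of their calls was fixed in advance. In the fit of both lines the difference in response of KRT86 was called lower (-2.94 ± 0.94, edgeR adjusted p = 0.0482), on the few PA-1 counts given above.

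**Figure D4:**
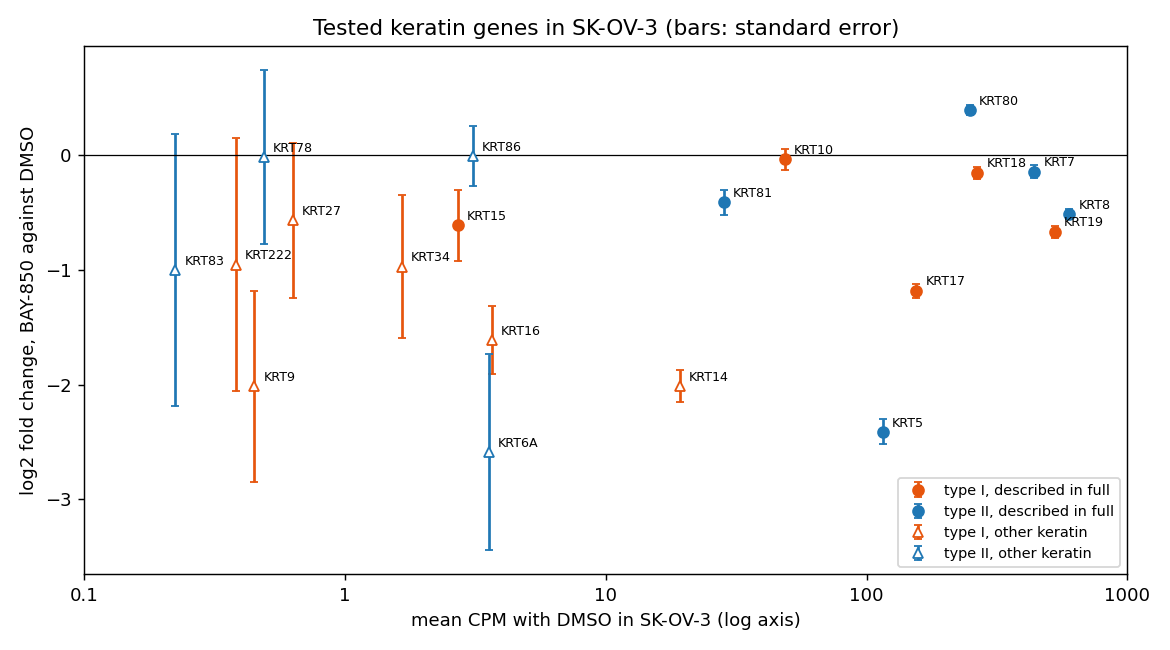
Log2 fold change with BAY-850 in SK-OV-3 against mean CPM with DMSO (log axis) for the 20 keratin genes tested, with bars of 1 standard error; filled circles are the 10 members, open triangles the other keratins, orange type I and blue type II. KRT5, KRT14 and KRT17 stand lowest among genes above 10 CPM, and the genes under 5 CPM have the longest bars.

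Genes of the structures that keratins attach to were read from lists of desmosome and plakin genes, hemidesmosome genes and other partners. Over all genes tested with BAY-850, 9.56% were called lower and 10.8% higher in SK-OV-3, and 2.48% and 4.65% in PA-1. The lists were chosen with earlier results of these data known, so their counts describe the lists only. In SK-OV-3 16 of 21 desmosome and plakin genes were tested, of which 6 fell and 1 rose, with a median log2 fold change of -0.24. The 6 were EPPK1, which binds keratin filaments, at -2.17 ± 0.65 from a level under 1 CPM, PKP2 at -0.55 ± 0.11, DST at -0.39 ± 0.09, DSP, the desmosomal anchor of keratin, at -0.25 ± 0.08, FAM83H at -0.25 ± 0.07 and DSG2 at -0.23 ± 0.06. JUP, plakoglobin, rose by 0.46 ± 0.06. Their edgeR adjusted p-values lay between 4.09e-04 and 0.0362. The most abundant gene of the list, PLEC, which links keratin to hemidesmosomes, was at 826 ± 45 and 726 ± 86 CPM with a log2 fold change of -0.17 ± 0.07 (edgeR adjusted p = 0.105).

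Of the 9 hemidesmosome genes all were tested in SK-OV-3. Those that fell included ITGA6 (-0.66 ± 0.07) and ITGB4 (-0.48 ± 0.05), which form the integrin of the hemidesmosome, and DST. The laminin chains LAMA3 (0.35 ± 0.07) and LAMB3 (0.27 ± 0.06) rose. In PA-1 PLEC (0.59 ± 0.08, edgeR adjusted p = 2.84e-04), EPPK1 (0.52 ± 0.10) and PPL (0.22 ± 0.06) rose among 16 desmosome and plakin genes tested, and PLEC also stands among the 8 hemidesmosome genes tested. In the fit of both lines PLEC (-0.77 ± 0.13, edgeR adjusted p = 8.44e-04), EPPK1, DSP and ITGA6 were among the genes called lower in SK-OV-3 than in PA-1: 8 of 17 desmosome and plakin genes tested and 5 of 9 hemidesmosome genes, with JUP called higher. Over all 16830 genes of that fit 7.77% were called lower and 6.7% higher.

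Of the other intermediate filament genes, the nuclear lamin LMNB1 (-0.67 ± 0.06), NES (-0.62 ± 0.08), SYNM (-0.45 ± 0.10) and LMNB2 (-0.22 ± 0.05) fell in SK-OV-3, 4 of 8 tested. VIM, the filament of mesenchymal cells and the most abundant of the list in both lines, was at 4089.6 CPM with DMSO and 3936 CPM under BAY-850 in SK-OV-3, a log2 fold change of -0.04 ± 0.03 (edgeR adjusted p = 0.434). In PA-1 LMNB2 rose by 0.28 ± 0.05, 1 of 12 tested. Of 20 genes of the cornified envelope and keratinocyte differentiation only 4 were high enough to test in SK-OV-3, and SFN (-0.54 ± 0.08) fell.

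Among 17 tested regulators of epithelial and keratin genes, 3 fell and 3 rose in SK-OV-3. The AP-1 subunit genes FOSB and FOS fell the most, FOSB from 66.5 ± 2.0 to 2.32 ± 0.47 CPM (log2 fold change -4.83 ± 0.12) and FOS from 159 ± 6.0 to 36.7 ± 0.94 CPM (-2.10 ± 0.06), and JUNB fell by 0.45 on the log2 scale. The AP-1 subunit genes FOSL2 (0.58 ± 0.07) and JUN (0.16 ± 0.05) rose, as did KLF4 (0.23 ± 0.05). In PA-1 ELF3 (0.80 ± 0.12), FOSL2 (0.48 ± 0.06) and FOSL1 (0.30 ± 0.06) rose and FOS fell by 0.25. The difference between lines was called for FOSB (-4.68 ± 0.19), FOS (-1.86 ± 0.07), ELF3 (-0.56 ± 0.15) and JUNB (-0.47 ± 0.11), all lower in SK-OV-3, and for GRHL1 (0.95 ± 0.23) and KLF4 (0.55 ± 0.15), both higher, of 18 tested.

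The genes whose profile was nearest to a member were ranked by the root mean square difference of centred log2(CPM + 1) over the 12 libraries, among 13423 genes. For KRT5 they were AMTN (0.37), ALDH3A1 (0.46), MMP7 (0.60), MFAP5 (0.60) and S100A2 (0.60), and for KRT17 MFAP5 (0.19), S100A2 (0.23), ALDH3A1 (0.24), AMTN (0.24) and MISP (0.24). The ranking used these same libraries, so the genes named for KRT5 and KRT17 share their pattern by selection. Each was low in PA-1 and lower with BAY-850 in SK-OV-3: AMTN averaged 66.2 ± 2.3 CPM with DMSO and 23.0 ± 1.2 CPM under BAY-850, and MFAP5 75.8 ± 0.90 and 44.6 ± 5.2 CPM. For KRT8, which varied far less, they were POLA2 (0.073), NDC1 (0.080), ALDH7A1 (0.080), MCCC2 (0.085) and SRSF5 (0.086). This likeness is dominated by the contrast between lines for KRT5 and KRT17 and is a description over 12 libraries from 2 lines.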

How the data were processed

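RNA was sequenced from both cell lines, PA-1 and SK-OV-3, in 3 libraries per group. Per the submitters' processing notes, the authors used Bowtie2 2.1.0, RSEM 1.2.15 and hg38; the annotation and the strand setting are not given in the sources used here. The deposited values are RSEM expected counts per gene symbol, not normalized, which split reads shared between gene copies by likelihood. Library preparation is described as poly(A) selection in the methods and as ribosomal RNA depletion in the series design.

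Expected counts were rounded, filtered with filterByExpr, scaled by TMM and tested with edgeR 4.0.16 quasi-likelihood (R 4.3.3) per comparison, with Benjamini-Hochberg adjustment over all genes tested. CPM used TMM factors over 12 libraries, and lengths came from GENCODE 29. DESeq2 1.42.0, limma-voom (limma 3.58.1), other scalings, filters, a GC correction, a replicate block and leaving out each library were alternatives. Scripts were tested on simulated data. The members and lists were chosen with earlier results of these data known. The text names the 10 members, other keratins passing the filter, up to 6 called genes per list and comparison by size of change with the most abundant gene of a list, and the 5 genes nearest to KRT5, KRT8 and KRT17. Replicates are described as biological, with no culture named, so p-values measure the spread between these libraries. Some genes of the partner and marker lists that passed the test are not reported here.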

Additional observations from a re-analysis of the deposited data

Results flagged for a closer look

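By the interaction term of the fit of all 12 libraries, 4 members and 1 other keratin were called different in response between the lines. In that fit 7.77% of 16830 genes were called lower and 6.7% higher. The members were chosen with these values known, so the count describes the set only. The SK-OV-3 minus PA-1 difference in log2 fold change was -0.65 for KRT8, -1.24 for KRT17, -0.23 for KRT18 and -1.10 for KRT19. For KRT18 it was no longer called under 3 settings and in 9 of 12 fits that left out 1 library, and for KRT17 it was not called by limma-voom (-1.23). KRT86 differed by -2.94, from PA-1 groups of at most 15.9 counts per library. The KRT86 call was absent in 5 settings and in at least 9 of 12 fits that left out 1 library. Groups of 3 libraries are too small for the test of single outlying samples.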

How the results depend on the processing

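Members called in SK-OV-3, between the lines and in the interaction stayed within 1.5 times their number under every alternative run, at 5 to 6, 10 and 3 to 4 when 1 library was left out. DESeq2 called 7 members lower in SK-OV-3 where edgeR called 5, adding KRT7 (-0.14) and KRT18 (-0.15). DESeq2 was not alone in this: of 17 alternative fits KRT18 stayed uncalled in 13 and KRT7 in 15, and the rest called them lower. In PA-1 the 1 member called, KRT19, became 0 with library size only and with the GC trend removed, 2 in the fit of all 12 libraries, which added KRT81, and 0 to 1 when 1 library was left out. Other keratins called in SK-OV-3 numbered 2, and 2 to 4 with 1 library left out, the 4 without SK-OV-3 BAY-850 replicate 3. Between the lines the 7 became 0 when at least 10 counts were required in every library, because no other keratin was then tested. The 1 in the interaction became 0 with library size only, with at least 10 counts in every library, with the replicate block, with limma-voom and with the GC trend removed, and 0 to 2 with 1 library left out. It was 0 in 9 of the 12 fits that left out 1 library. Genes of the partner lists called in PA-1 numbered 9, and 4 to 13 with 1 library left out. The sign reversed for KRT17 in PA-1 with library size only (-0.00797), with the GC trend removed (-0.045) and without 1 of 3 libraries (-0.20 to 0.26 over the 6), for KRT18 in PA-1 with the GC trend removed (-0.00047), and for KRT10 in SK-OV-3 without DMSO replicate 1 (-0.097 to 0.087 over the 6). The cause of these changes was not tested, apart from the filter. Over all genes, 707 higher and 378 lower in PA-1 became 235 and 231 with library size only, and 543 and 505 without ribosomal RNA genes in the library size. In the interaction 1128 and 1307 became 1062 and 773 with library size only.

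Replicate numbers did not pair the libraries: deviations of same-numbered DMSO and BAY-850 libraries correlated at -0.0594 to 0.055 within a line and at 0.0272 to 0.201 between the lines under DMSO, where 1 of 3 was above 0.1, and the replicate block left the members called at 1, 6, 10 and 4. KRT17 and KRT81 in PA-1 rested on at most 54 and 25 counts per library, and how much of their error is counting error was not tested.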
